A study of Rattus norvegicus with 12 samples.

Results

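Small RNA in the serum vesicles of rats given the compound that the labels call CBZ was compared with that of rats given its corn oil vehicle, in 6 of the 12 libraries of the series. The 6 libraries were chosen by their names in a table of raw read counts, CBZ libraries 1 to 3 and oil libraries 1 to 3, and all 1709 features of that table were kept, in 16 RNA classes. The CBZ group received a single oral dose of 400 mg/kg CBZ suspended in corn oil (5 mL/kg), and the oil group received corn oil alone. Both groups were male Sprague-Dawley rats of 9 weeks, bled under isoflurane 24 h after the dose. CBZ is not spelled out in the labels and was given there as a compound toxic to the testis. Vesicles labelled as exosomes were pelleted at 208000 g from 2.7 mL of cleared serum, a step that also brings down protein particles that carry RNA. Nothing in the labels says that each library came from a separate rat, so the spread behind every p-value is that of the libraries at hand and may in part be technical. The EGME group (2000 mg/kg EGME, a glycol ether solvent, diluted in water at 10 mL/kg) and its water group were used for a single contrast at the end. Rats of the EGME and water groups were also 9 weeks old and were sampled 24 h after the dose.

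Serum vesicles carry fragments of many cellular RNAs. A mature miRNA is a short RNA cut from a hairpin, and it finds its targets mainly through its seed, the bases 2 to 8 from its 5′ end. In serum many miRNAs come from blood cells, platelets and the vessel wall, and the liver adds miR-122. Fragments of tRNA, of ribosomal RNA and of mitochondrial RNA are read in the same libraries. In such a mixture a lower share of a cell type's RNA cannot be told apart from less RNA per vesicle or fewer vesicles of that origin.

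The miRNAs that passed the test between CBZ and oil among mature miRNAs are shown first, so that the values can be read beside the molecules, with miR-122-5p and the most abundant miRNA, miR-148a-3p, added. The mature sequences are those of RefSeq (GRCr8), matched by name, and capitals mark the seed.
miR-423-5p: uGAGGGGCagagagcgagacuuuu
miR-128-3p: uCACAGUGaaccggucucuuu
miR-27a-5p: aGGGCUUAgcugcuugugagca
miR-10a-5p: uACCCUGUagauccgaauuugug
miR-143-3p: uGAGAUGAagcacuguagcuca
let-7d-5p: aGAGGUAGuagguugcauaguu
miR-126a-3p: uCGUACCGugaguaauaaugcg
miR-24-3p: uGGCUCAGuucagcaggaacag
miR-451-5p: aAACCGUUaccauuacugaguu
miR-185-5p: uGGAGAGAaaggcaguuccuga
miR-93-5p: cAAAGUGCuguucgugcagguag
miR-223-3p: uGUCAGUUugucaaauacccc
miR-122-5p: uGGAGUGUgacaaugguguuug
miR-148a-3p: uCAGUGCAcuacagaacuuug

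In GRCr8, miR-423-5p is encoded at chr10:62412317-62412340 on the minus strand, miR-223-3p at chrX:65151450-65151470 on the plus strand and miR-451-5p at chr10:63459585-63459606 on the plus strand. The miR-128-3p sequence stands in the table at 2 loci, Mir128-1 (chr13:42251933-42251953, plus) and Mir128-2 (chr8:120963807-120963827, minus), which the reads cannot separate. miR-24-3p likewise has the loci Mir24-1 and Mir24-2. Of the 343 mature miRNAs listed, 312 matched an entry by name, as did 101 of the 115 tested. miR-320-3p is named only. No pair of the 14 sequences shown shares a seed. The median GC content was 46.5% over the 8 sequences of miRNAs that rose, 46.4% over the 4 of miRNAs that fell and 45.5% over the 101 matched among those tested.

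The assigned counts numbered 443084, 410819 and 405976 in CBZ libraries 1 to 3, against 392677, 196460 and 598200 in oil libraries 1 to 3. Between 839 and 987 features had a read in a library, and a feature with no read in a library could still lie at up to 5.02 to 15.3 CPM (the count divided by the library total, times a common constant), counting error only; elsewhere CPM uses the scaled total. Oil library 2, the shallowest, stood apart. Nuclear rRNA took 26.7% of its counts, against 2.73% to 3.14% in the CBZ libraries and 1.67% and 5.03% in the other oil libraries. Pairs of CBZ libraries differed by a chi-square per degree of freedom of 21.6 to 42.8, and pairs of oil libraries by 225 to 463, so the vehicle group was the less uniform one. Which features passed is therefore given with oil library 2 and without it, and without it the oil group has 2 libraries. Those 2, oil libraries 1 and 3, were also unlike each other, with a chi-square per degree of freedom of 225. Annotated piRNA took 27.5% of the counts in oil library 1, against 12.6% in oil library 3 and 12.2% to 17.3% in the CBZ libraries. Medians of lists, families and tRNA isoacceptors, and values of features that did not pass, are over 6 libraries unless stated.

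The first question was whether CBZ altered the mixture of RNA classes. Fragments of tRNA took 37.0%, 43.5% and 37.8% of the counts in CBZ libraries 1 to 3, against 34.5%, 21.7% and 35.8% in oil libraries 1 to 3. Every CBZ library thus lay above every oil library, with means of 39.4% ± 3.58 in CBZ and 30.6% ± 7.80 in oil (SD, n = 3 each). The two-sided exact permutation p was 0.10, the smallest that 3 libraries against 3 allow, and 0.325 after Benjamini-Hochberg adjustment over 13 classes, so the share did not pass the test. Without oil library 2 the difference was 4.32 percentage points in place of 8.80, and the groups still did not overlap. With the total taken without the most abundant feature they did overlap, at 45.8%, 55.5% and 51.1% in CBZ against 41.9%, 24.6% and 49.3% in oil (exact p = 0.20). With near-identical gene copies counted once, tRNA took 9.04% ± 1.32 of the counts in CBZ and 6.56% ± 1.59 in oil (SD, n = 3 each; exact p = 0.10). Most of the class was a set of near-identical glycine genes that share reads. One of them, chr19.trna1527-GlyGCC, had 18845 of the 163966 tRNA counts in CBZ library 1 and 4721 of 42540 in oil library 2. Its near copies had about the same counts each, so the share largely follows these genes and not tRNA in general.

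Mitochondrial RNA lay the other way. Mitochondrial rRNA took 0.0153%, 0.0151% and 0.00764% of the counts in the CBZ libraries, against 0.0820%, 0.422% and 0.0364% in the oil libraries. Mitochondrial tRNA took 0.00835%, 0.00560% and 0.00222% in the CBZ libraries, against 0.0313%, 0.0545% and 0.0191% in the oil libraries. Both classes were lower in every CBZ library than in any oil library, also without oil library 2, and each had an exact p of 0.10 and an adjusted p of 0.325. Small nucleolar RNA, which guides the modification of rRNA, showed the same order, with 0.0280% ± 0.00316 in CBZ and 0.0629% ± 0.0439 in oil (SD, n = 3 each; exact p = 0.10).

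The other abundant classes overlapped between the groups. Mature miRNA took 20.3% ± 2.78 of the counts in CBZ and 21.1% ± 5.93 in oil (SD, n = 3 each; exact p = 0.900). The class misc_RNA, Ensembl's type for small non-coding RNAs outside the other classes, took 22.5% ± 3.50 in CBZ and 19.3% ± 7.64 in oil (exact p = 0.500, n = 3 each). Nearly all of that share was a single feature, ENSRNOT00000090410.1. It took 19.1% of all counts in CBZ library 1, where the class took 19.4%. In oil library 3 it took 27.4%, and the class 27.5%. Annotated piRNA took 14.4% ± 2.60 in CBZ and 17.2% ± 8.95 in oil (exact p = 0.900, n = 3 each). Nuclear rRNA took 3.00% ± 0.238 in CBZ and 11.1% ± 13.6 in oil (exact p = 0.400, n = 3 each), with oil library 2 far above the others.

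**Figure D1:**
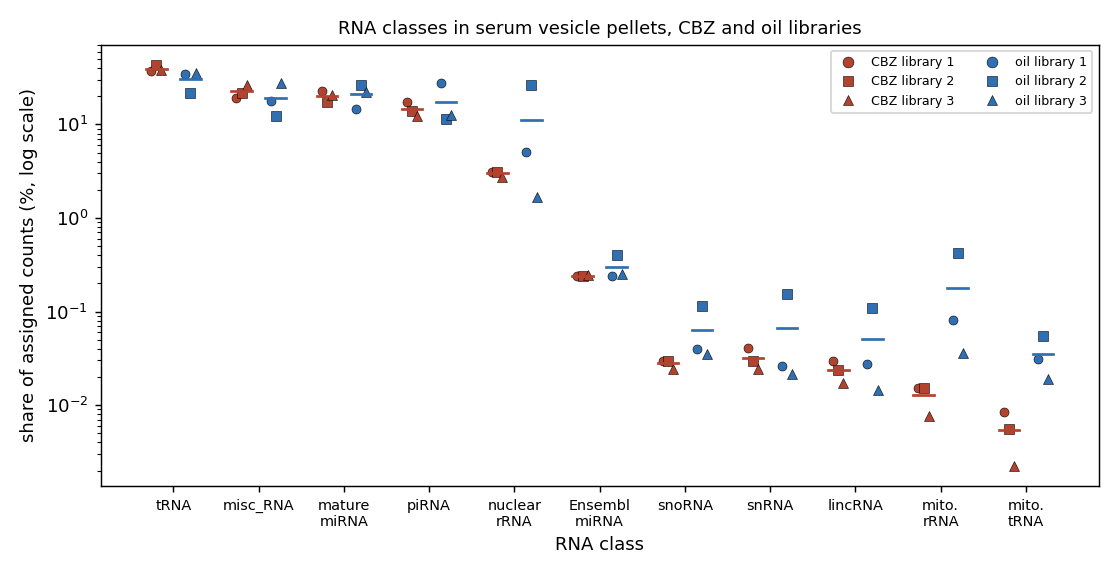
Share of assigned counts of 11 RNA classes (percent, log scale) in each library, with CBZ at the left and oil at the right of each class and bars at the group means. tRNA is higher and mitochondrial rRNA and tRNA are lower in all CBZ libraries, and oil library 2 (blue squares) lies at 26.7% for nuclear rRNA.

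The mature miRNAs were compared with each other next, scaled and tested within their class. Relative to the other miRNAs, 9 rose and 4 fell in CBZ out of 115 tested, at an adjusted p under 0.05 in edgeR's quasi-likelihood test. These are 7.83% and 3.48% of the miRNAs tested, and 11.3% together. In this fit the p-values were adjusted over the 230 features of all 4 classes fitted this way. The median log2 fold change over all 115 was 0.03.

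The smallest p belonged to a rise, that of miR-423-5p, a miRNA abundant in many cell types and in circulation. It had 2585, 2557 and 2856 CPM of miRNA counts in the CBZ libraries, against 733, 728 and 1218 CPM in the oil libraries. The lowest CBZ library lay above the highest oil library, as was so for 17.4% of the miRNAs tested, while 13.9% lay wholly below. The log2 fold change was 1.54 (SE 0.261, adjusted p = 6.79e-05). It passed the test in all 16 alternative analyses, with a log2 fold change of 1.17 to 1.86 and an adjusted p of 5.81e-06 to 0.0480. The other arm of its hairpin, miR-423-3p, had a log2 fold change of 0.67 and an adjusted p of 0.0700.

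miR-128-3p, which is enriched in brain and also found in blood, had 56046, 59470 and 68979 CPM in the CBZ libraries, against 18793, 38685 and 25966 CPM in the oil libraries. It was the most abundant of the miRNAs that passed the test. The difference was 1.15 on the log2 scale (SE 0.280, adjusted p = 0.00449), and 1.40 (adjusted p = 2.78e-04) without oil library 2. Of the other 9 brain miRNAs looked for, 4 were listed, each with 0 to 4 counts in a library.

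miR-10a-5p, encoded in a Hox gene cluster, had 3059, 4357 and 3489 CPM in CBZ, against 1729, 2888 and 1544 CPM in oil. The log2 fold change was 0.85 (SE 0.256, adjusted p = 0.0223), and 1.09 (adjusted p = 3.02e-04) without oil library 2. miR-143-3p, a miRNA of smooth muscle, had 7709, 5189 and 8052 CPM in CBZ, against 3775, 3954 and 4473 CPM in oil. Its log2 fold change was 0.78 (SE 0.229, adjusted p = 0.0204). miR-27a-5p, the less abundant arm of its hairpin, averaged 835 ± 114 CPM in CBZ and 437 ± 81.6 CPM in oil (SD, n = 3 each), with a log2 fold change of 0.96 (edgeR adjusted p = 0.0223). In all 3 of these the groups did not overlap.

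The other 4 that rose were miR-320-3p, let-7d-5p, miR-126a-3p and miR-24-3p. miR-320-3p, which is made without the nuclear enzyme Drosha in mouse, had 6184, 8615 and 6323 CPM in CBZ, against 4149, 1821 and 4706 CPM in oil, and its log2 fold change was 0.97 (adjusted p = 0.0225). let-7d-5p averaged 5573 ± 139 CPM in CBZ and 3264 ± 663 CPM in oil (SD, n = 3 each), a log2 fold change of 0.77 (edgeR adjusted p = 0.0225). miR-126a-3p, a miRNA of the endothelium, averaged 4917 ± 675 CPM in CBZ and 2996 ± 312 CPM in oil, a log2 fold change of 0.71 (adjusted p = 0.0407). miR-24-3p averaged 8303 ± 1234 CPM in CBZ and 5086 ± 926 CPM in oil, a log2 fold change of 0.70 (adjusted p = 0.0326). These 4 did not pass without oil library 2, where their log2 fold changes were 0.56 to 0.64 and their adjusted p-values 0.0522 to 0.0880.

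The 4 miRNAs that fell included 2 of the red cell list. miR-223-3p, a miRNA of neutrophils, monocytes and platelets, had 986, 1179 and 1449 CPM in CBZ, against 1867, 2992 and 3339 CPM in oil, a log2 fold change of -1.18 (SE 0.257, adjusted p = 0.00112). miR-451-5p, the erythroid miRNA that is cut by Argonaute 2 and not by Dicer, had 4836, 6219 and 5110 CPM in CBZ, against 8643, 9574 and 12239 CPM in oil. It fell by 0.92 on the log2 scale (SE 0.229, adjusted p = 0.00476). In both, every CBZ library lay below every oil library.

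miR-185-5p, taken here as a red cell miRNA, had 1339, 981 and 945 CPM in CBZ, against 2019, 2159 and 2474 CPM in oil, a log2 fold change of -1.03 (SE 0.255, adjusted p = 0.00476). miR-93-5p, encoded beside miR-106b and miR-25 in a gene of the DNA replication machinery, had 586, 745 and 709 CPM in CBZ, against 1659, 963 and 1748 CPM in oil. It fell by 1.13 on the log2 scale (SE 0.272, adjusted p = 0.00419), and by 1.39 (adjusted p = 2.13e-05) without oil library 2. Each of the 4 passed in 12 of the 16 alternatives, not the same 12, and each had a negative sign in all 16.

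**Figure D2:**
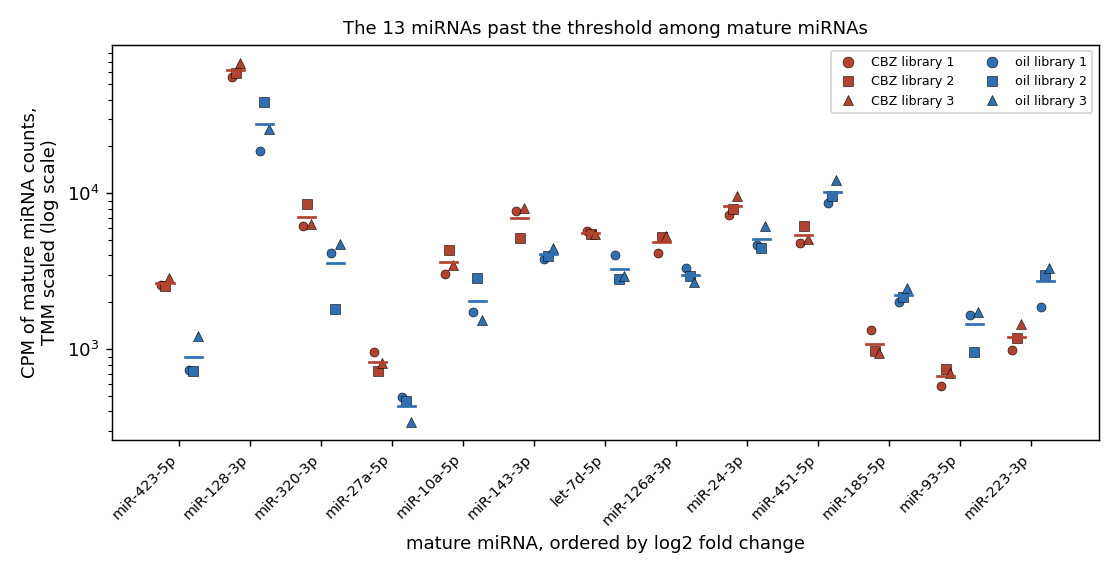
CPM among mature miRNA counts, TMM scaled (log scale), of the 13 miRNAs that passed the test, per library, with CBZ at the left and oil at the right and bars at the group means. The first 9 rose and the last 4 fell, and miR-423-5p lies at 2557 to 2856 CPM in CBZ and at 728 to 1218 CPM in oil.

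Of the 13 miRNAs, 9 passed both with and without oil library 2: miR-423-5p, miR-128-3p, miR-27a-5p, miR-10a-5p, miR-143-3p, miR-451-5p, miR-185-5p, miR-93-5p and miR-223-3p. Without that library 16 of 121 miRNAs passed (13.2%), 8 higher and 8 lower (6.61% each). The number was smaller when a CBZ library was left out. It was 2 without CBZ library 1 (miR-423-5p higher and miR-185-5p lower), 1 without CBZ library 2 (miR-423-5p) and 7 without CBZ library 3, against 11 without oil library 1 and 10 without oil library 3. Scaling changed it too: with DESeq2 size factors miR-423-5p rose and the 4 named above fell, with upper quartile scaling 1 rose and 12 fell, and with no scaling miR-423-5p, miR-128-3p and miR-122-5p rose and none fell. Upper quartile scaling moved the median log2 fold change of the miRNAs to -0.35. In a single fit of all classes with an offset per class, 1 miRNA, miR-423-5p, passed. The sign of every one of the 13 was the same in all these analyses.

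A further 7 miRNAs passed without oil library 2. miR-122-5p, the dominant miRNA of hepatocytes, had 9839, 7820 and 3414 CPM in CBZ, against 1991, 4084 and 1404 CPM in oil. CBZ library 3 lay below oil library 2, so the groups overlapped, and the log2 fold change over 6 libraries was 1.53 (SE 0.536, adjusted p = 0.172). With oil library 2 left out it was 1.99 (SE 0.329, adjusted p = 9.31e-05), and every CBZ library was above both oil libraries. The CBZ libraries themselves ranged from 3414 to 9839 CPM.

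The other 6 that passed only in that fit were counted with the same caution about a pair of oil libraries. let-7g-5p (log2 fold change -0.99, adjusted p = 0.00704), miR-140-3p (-0.93, adjusted p = 0.00452), miR-101a-3p (-0.87, adjusted p = 0.0174) and the erythroid miR-144-3p (-1.28, adjusted p = 0.0174) fell. miR-144-3p had 108, 45 and 35 counts in CBZ, against 154, 34 and 102 in oil. Its groups overlapped also without oil library 2, with CBZ library 1 above oil library 3 (231 against 195 CPM of all counts). miR-125a-5p (1.65, adjusted p = 0.0462) and the muscle miRNA miR-1-3p (1.47, adjusted p = 0.0272) rose, both from low counts. miR-125a-5p had 21, 18 and 14 counts in CBZ, against 7, 4 and 3 in oil. For miR-1-3p the counts were 22, 15 and 44 in CBZ, against 7, 23 and 11 in oil, so its rise depended on leaving out oil library 2. Both of these miRNAs can pass the filter on low counts through CBZ alone, so their values are a description.

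The most abundant miRNA, miR-148a-3p, did not pass. It had 245768, 214481 and 237350 CPM in CBZ, against 155062, 648574 and 506737 CPM in oil, a log2 fold change of -0.91 (adjusted p = 0.219). The CBZ libraries were close together and lay inside the range of the oil libraries. let-7i-5p, the next in abundance, averaged 94220 ± 14637 CPM in CBZ and 114590 ± 22982 CPM in oil (SD, n = 3 each; log2 fold change -0.28, edgeR adjusted p = 0.561).

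Lists of miRNAs by source were then read against the class as a whole. Of the 9 red cell miRNAs, all tested, miR-451-5p and miR-185-5p fell, none rose, and 8 of 9 had a log2 fold change below 0. The median was -0.49, against 0.03 over all 115 miRNAs. miR-486, the most abundant of them, had 51750, 60066 and 55816 CPM in CBZ, against 82419, 78750 and 70859 CPM in oil, and did not pass (log2 fold change -0.47, adjusted p = 0.396). The exception in sign was miR-92a-3p (log2 fold change 0.45, adjusted p = 0.290), and miR-25-3p had a log2 fold change of -0.25 (adjusted p = 0.527). The median was -0.51 and 3 of the 9 fell when oil library 2 was left out. The added one, miR-144-3p, had groups that overlapped.

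White cell miRNAs showed no common direction. Of 6 myeloid miRNAs tested, miR-223-3p fell and the median log2 fold change was -0.22. The other arm of its hairpin, miR-223-5p, had a log2 fold change of -0.08 (adjusted p = 0.820), and miR-142-3p, a pan-leukocyte miRNA, of -0.41 (adjusted p = 0.414). miR-146b-5p had 0.47 (adjusted p = 0.271). None of 3 lymphoid miRNAs passed, and their median was 0.09, with miR-150-5p, a miRNA of mature lymphocytes, at -0.06 (adjusted p = 0.853).

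Platelet and vessel miRNAs shared members with these lists. Of 6 platelet miRNAs, miR-126a-3p and miR-24-3p rose and miR-223-3p fell, the median being 0.26. Without oil library 2 none of the 6 rose, miR-223-3p fell and the median was 0.17. miR-191a-5p (0.36, adjusted p = 0.428) and miR-21-5p (-0.24, adjusted p = 0.553), the most abundant of them, did not pass. Of 3 vascular miRNAs tested, miR-126a-3p and miR-143-3p rose and miR-126a-5p had a log2 fold change of 0.61 (adjusted p = 0.525). The miR-143 partner miR-145-5p was at 0 to 2 counts per library.

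Tissue miRNAs were mostly near the counting floor. Of the liver miRNAs, miR-122-5p is given above, miR-192-5p had a log2 fold change of 0.38 (adjusted p = 0.414), and miR-194-5p had 4 to 13 counts per library. Of 22 testis and germ cell miRNAs, 8 were listed and none reached the test, their summed counts being 4, 2 and 4 in CBZ and 3, 2 and 2 in oil. At this depth no difference in them was detectable. Of 4 muscle miRNAs listed, miR-1-3p alone was tested. Of 4 epithelial miRNAs tested none passed (median 0.51), with miR-375-3p at 0.76 (adjusted p = 0.294) and miR-203a-3p at 0.31 (adjusted p = 0.592). Of the miRNAs tied to the tumour suppressor p53, miR-34a-5p had 1 count in all, and miR-215 had a log2 fold change of 0.26 (adjusted p = 0.664). Without oil library 2 miR-215 was at -0.11 (adjusted p = 0.775).

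**Figure D3:**
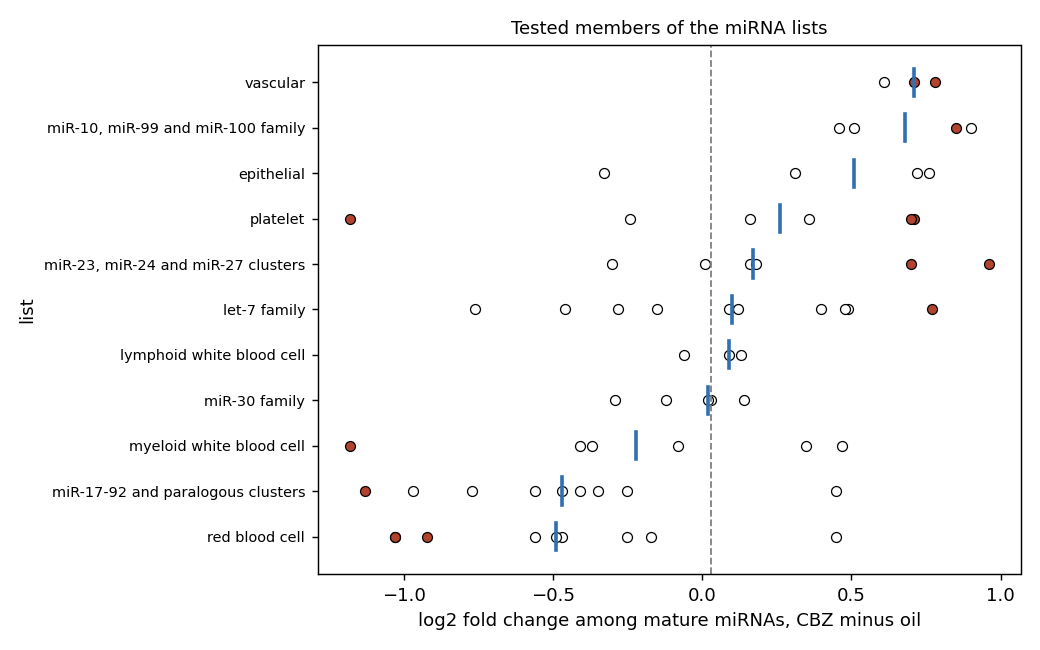
Log2 fold change among mature miRNAs, CBZ minus oil, of the tested members of 11 lists with at least 3 of them. Filled points passed the test, blue bars mark list medians and the dashed line marks the median of all miRNAs tested (0.03). 8 of the 9 red cell miRNAs lie below 0, and all vascular and all miR-10, miR-99 and miR-100 members lie above it.

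Members sharing a seed were then set side by side. The seed of miR-93-5p, AAAGUGC, is also that of miR-106b-5p, miR-17-5p and miR-20a-5p, whose log2 fold changes were -0.97, -0.47 and -0.41 with adjusted p-values of 0.271, 0.414 and 0.414. In the wider group of the miR-17-92 cluster and its paralogues, 9 miRNAs were tested, miR-93-5p fell and 8 were below 0, with a median of -0.47. This group shares miR-92a-3p, miR-25-3p and miR-363-3p with the red cell list. The let-7 seed, GAGGUAG, was carried by let-7d-5p, which rose, and by let-7g-5p, which had a log2 fold change of -0.76 (adjusted p = 0.0657). Of the 10 let-7 members tested, 6 were above 0 and 4 below, with a median of 0.10. Without oil library 2 let-7g-5p fell, let-7d-5p did not pass, and the median was 0.36. The most abundant after let-7i-5p were let-7f-5p (-0.46, adjusted p = 0.414), let-7g-5p and let-7a-5p (0.49, adjusted p = 0.252).

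Among the other families, 1 of 4 tested members of the miR-10, miR-99 and miR-100 family rose, miR-10a-5p, and the median was 0.68. miR-99a-5p had a log2 fold change of 0.51 (adjusted p = 0.223) and miR-99b-5p of 0.90 (adjusted p = 0.0657). Of 6 members of the miR-23, miR-24 and miR-27 clusters, miR-24-3p and miR-27a-5p rose, and the median was 0.17. That median was -0.04 without oil library 2, where miR-27a-5p alone rose. The main arm of the miR-27a hairpin, miR-27a-3p, had a log2 fold change of 0.18 (adjusted p = 0.602). The 5 miR-30 members had a median of 0.02 and none passed, miR-30d-5p being at 0.14 (adjusted p = 0.654). Without oil library 2 all 5 were below 0, with a median of -0.14. miR-148b-3p and miR-152-3p, which carry the seed of miR-148a-3p, had log2 fold changes of -0.68 and -0.22 (adjusted p = 0.139 and 0.620).

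All RNA classes were then tested in a single fit. Over the 6 libraries none of 244 features passed the edgeR test (0% called; 64 had an unadjusted p under 0.05, and the lowest adjusted p was 0.0773), while the DESeq2 Wald test called 24, 5 higher and 19 lower. Without oil library 2, 26 of 258 passed (10.1%), 8 higher (3.10%) and 18 lower (6.98%). The 26 comprised 11 nuclear rRNAs, 5 miRNAs, 3 misc_RNAs, 2 piRNAs, 2 mitochondrial rRNAs, 2 mitochondrial tRNAs and 1 Ensembl miRNA transcript. None of 70 tRNA genes was among them. Over 6 libraries every CBZ library was above every oil library for 19.7% of the 244 features and below for 15.2%. The 5 miRNAs were miR-122-5p (log2 fold change 2.11, adjusted p = 0.0323), miR-128-3p (1.49, adjusted p = 0.00841), miR-423-5p (1.47, adjusted p = 0.0172) and miR-10a-5p (1.17, adjusted p = 0.0189), which rose, and miR-93-5p (-1.30, adjusted p = 0.0137), which fell. No miRNA was called when CBZ library 2 was left out as well, and miR-122-5p alone when CBZ library 3 was. With upper quartile scaling miR-128-3p, miR-423-5p and miR-10a-5p were not called. Leaving out a further library gave 9 to 44 calls, with 44 without CBZ library 1, 9 without CBZ library 2, 15 without CBZ library 3 and 42 without oil library 1.

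**Figure D4:**
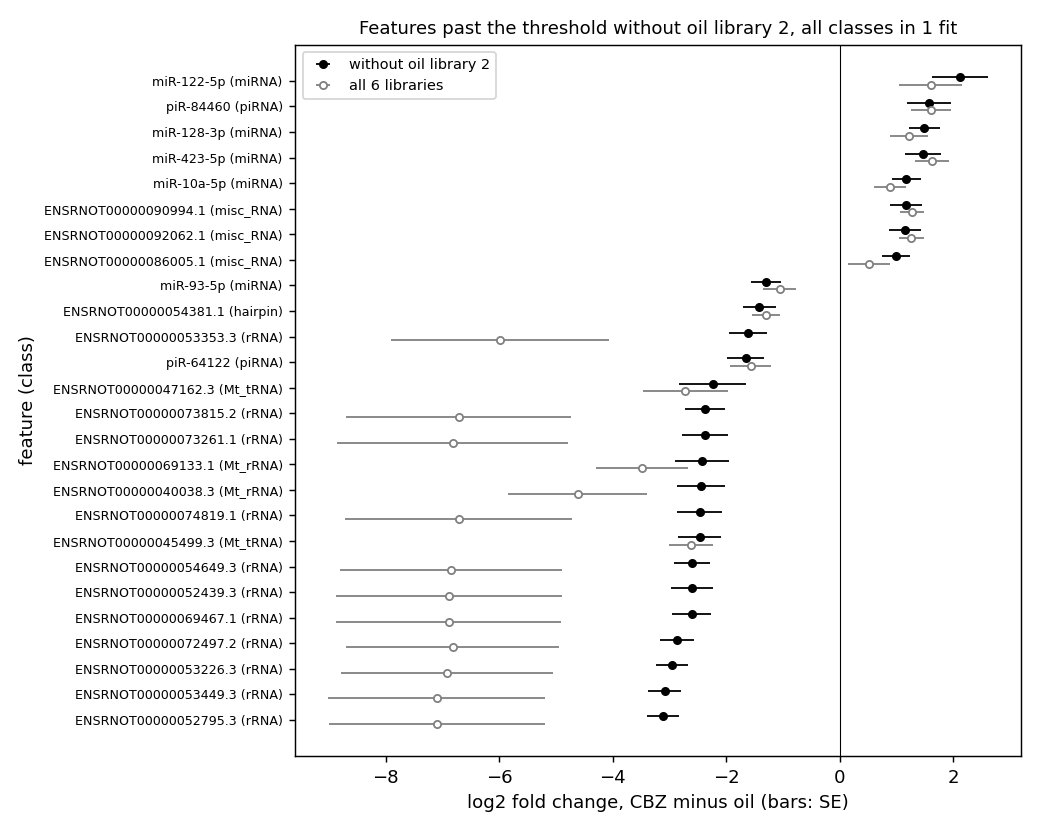
Log2 fold change, CBZ minus oil, with its SE, of the 26 features that passed the test over all classes without oil library 2 (black), beside the same features over all 6 libraries (grey, open). The 11 nuclear rRNAs lie between -3.11 and -1.61 without oil library 2, and at -7.10 to -5.99 with wide errors when it is included.

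Both mitochondrial rRNAs fell when oil library 2 was left out. Mitochondrial rRNA forms the ribosome of the organelle, and its 2 transcripts were both tested. ENSRNOT00000069133.1 had 46, 49 and 20 counts in CBZ, against 231, 394 and 153 in oil, and ENSRNOT00000040038.3 had 22, 13 and 11 in CBZ, against 91, 435 and 65 in oil. In both, the highest CBZ library was below the lowest oil library, although oil library 3 had the most counts in all. With oil library 2 left out, their log2 fold changes were -2.43 (SE 0.470, adjusted p = 0.0130) and -2.44 (SE 0.420, adjusted p = 0.00565). Neither was called when CBZ library 2 was left out as well (lowest adjusted p = 0.0686). Over 6 libraries they were -3.48 and -4.62 (adjusted p = 0.133 each).

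Of 18 mitochondrial tRNAs listed, 2 passed the filter on low counts. ENSRNOT00000045499.3 had 6, 9 and 5 counts in CBZ, against 34, 23 and 39 in oil, and it had the smallest p of all features in the fit of 6 libraries (log2 fold change -2.62, SE 0.382, adjusted p = 0.0773). The log2 fold change was -2.47 (adjusted p = 0.00327) without oil library 2. ENSRNOT00000047162.3 had 11, 6 and 1 counts in CBZ, against 29, 29 and 26 in oil, with a log2 fold change of -2.24 without oil library 2 (adjusted p = 0.0478). That call was lost with no scaling and without CBZ library 2 or 3. Nearly all CBZ counts of both lie under the filter's minimum of 10, and with 10 counts required in 3 libraries 1 of them was tested and none called (adjusted p = 0.0592), so these values are a description. All 18 of that class had a lower mean share of the counts in CBZ than in oil, and 15 of 18 without oil library 2. A further 2 mitochondrial tRNAs, listed among the tRNA genes, did not pass the filter in these fits: chrM.trna4-GlnTTG had 4, 5 and 2 counts in CBZ, against 14, 4 and 5 in oil, and chrM.trna1-LeuTAA 1, 1 and 2 in CBZ, against 4, 3 and 3 in oil. The mitochondrial transcripts can pass the filter through their level in oil alone, so the count of those tested is no measure of the class.

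Nuclear rRNA, the RNA of cytoplasmic ribosomes, was described in sets of its more abundant transcripts. They were split by whether oil library 2 had more counts than oil library 1 (group A) or fewer (group B). Some members are near-identical and share reads. The sets were drawn up after their values were seen, and group A was picked on its oil values. The first, group A, holds 11 transcripts, all of which fell in the fit over all classes without oil library 2 (log2 fold changes -3.11 to -1.61, adjusted p 2.31e-04 to 0.0137). ENSRNOT00000052795.3 had 57, 47 and 38 counts in CBZ, against 294, 8406 and 526 in oil, and ENSRNOT00000069467.1 had 25, 21 and 14 in CBZ, against 87, 3096 and 160 in oil. The CBZ libraries were all lower than oil libraries 1 and 3 as well as oil library 2. ENSRNOT00000074819.1 had 6, 5 and 4 counts in CBZ, against 17, 703 and 40 in oil, so such members can pass the filter through oil alone. The number of group A that fell is therefore no measure of the class. Scaled within rRNA over 6 libraries, 10 of the 27 rRNA transcripts tested passed, all lower (37.0%) and all of group A. That count was 1 with DESeq2 size factors, 5 with upper quartile scaling and 4 with no scaling. Without oil library 2, 10 of 27 passed within rRNA, 9 lower (33.3%) and 1 higher (3.70%). The higher one, ENSRNOT00000091009.1, had 75, 45 and 35 counts in CBZ, against 42, 29 and 37 in oil (log2 fold change 1.29). It was not called with DESeq2 size factors, upper quartile scaling, no scaling, no filter, class offsets, the replicate number as a block or the DESeq2 Wald test. The group A transcript that missed over 6 libraries was ENSRNOT00000053353.3 (log2 fold change -1.81, adjusted p = 0.172).

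Group B holds 7 rRNA transcripts with near-equal counts. ENSRNOT00000084761.1 had 1904, 1763 and 1524 counts in CBZ, against 2550, 325 and 978 in oil, and ENSRNOT00000089050.1 had 1894, 1760 and 1526 in CBZ, against 2553, 343 and 981 in oil. The CBZ libraries lay within the range of the oil libraries. None of the 7 passed, with a median log2 fold change of 0.12 over all classes, -0.22 over all classes without oil library 2, and 1.21 within rRNA, so that their sign depends on the scaling. The scaling factors within rRNA ranged from 0.6964 to 2.101 between libraries. Values within this class therefore depend on the scaling.

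**Figure D5:**
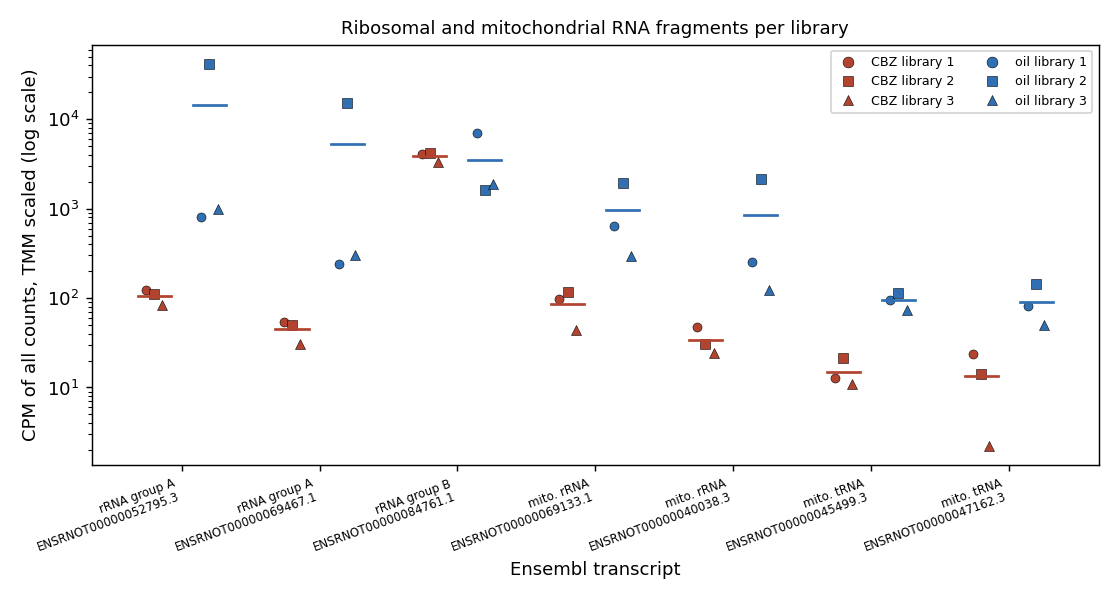
CPM of all counts, TMM scaled (log scale), of 3 nuclear rRNA transcripts of groups A and B, both mitochondrial rRNAs and both tested mitochondrial tRNAs, per library, with CBZ at the left and oil at the right and bars at the group means. Except for the group B transcript ENSRNOT00000084761.1, every CBZ library lies below every oil library.

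Among sequences annotated as piRNA, a class that silences transposons in germ cells, none of 18 passed when scaled within their class over 6 libraries (0%; 2 had an unadjusted p under 0.05, and the DESeq2 Wald test called 1, piR-64122, lower). piR-64122 had 1500, 1002 and 815 counts in CBZ, against 2208, 1277 and 4918 in oil. Among piRNA counts it had 16921, 17931 and 16578 CPM in CBZ, against 32134, 29144 and 90948 CPM in oil, so the groups did not overlap. Its log2 fold change within the class was -1.57 (SE 0.579, adjusted p = 0.0675), and it fell without oil library 2 both within its class (-2.24, adjusted p = 3.13e-04) and over all classes (-1.66, adjusted p = 0.0125).

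The low-count piRNAs passed in fewer fits. piR-84460 had 42, 32 and 33 counts in CBZ, against 6, 5 and 18 in oil, and it rose over all classes without oil library 2 (1.57, adjusted p = 0.0323) but not within its class (1.12, adjusted p = 0.291). piR-72418 had 32, 13 and 19 counts in CBZ, against 5, 1 and 7 in oil, a log2 fold change within its class of 2.06 (adjusted p = 0.0657) and 1.38 (adjusted p = 0.136) without oil library 2. In both, every CBZ library was above every oil library in CPM. They were the only 2 of the 18 piRNAs tested for which that was so (11.1%). Wholly below lay 1, piR-64122 (5.56%), so these shares are no background for them. Both can pass the filter on low counts through CBZ alone.

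The most abundant piRNA, piR-63429, had 36680, 33190 and 29862 counts in CBZ, against 49432, 4786 and 19420 in oil, with a log2 fold change of 0.44 (adjusted p = 0.618). Its count was 19.3, 18.8 and 19.6 times that of the group B rRNA ENSRNOT00000084761.1 in the CBZ libraries, against 19.4, 14.7 and 19.9 times in the oil libraries, a ratio looked at after the values were seen. The next, piR-63455 and piR-63454, stood in ratios of 1.09, 1.15 and 1.11 in CBZ and 1.10, 1.03 and 1.08 in oil. Both fell within their class without oil library 2 (log2 fold changes -1.47 and -1.50, adjusted p = 6.17e-05 and 6.54e-05). Over 6 libraries their log2 fold changes were -0.80 and -0.84, with adjusted p-values of 0.468 and 0.455. The class's scaling factors without oil library 2 were 1.41, 1.293 and 1.225 in CBZ, against 0.675 and 0.663 in oil. With no scaling neither passed, nor did piR-64122, and 3 other piRNAs, among them piR-72418 and piR-84460, were called higher. With 10 counts required in 3 libraries no piRNA was called, and with no filter piR-64122 alone.

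Transfer RNAs carry amino acids to the ribosome, and in serum they are read as fragments. Within the class none of 70 tRNA genes passed over 6 libraries (0%; 3 had an unadjusted p under 0.05, and the DESeq2 Wald test called 2, chr2.trna7585-GlyCCC and chr6.trna6230-LysCTT, both lower). The 3 with the smallest p were chr10.trna8966-CysGCA (log2 fold change 0.75), chr2.trna4366-GluTTC (0.56) and chr4.trna7782-GluCTC (0.99), with adjusted p-values of 0.162, 0.252 and 0.260. The most abundant genes, those of glycine with anticodon GCC, are near-identical copies that share reads. chr10.trna11254-GlyGCC had 18844, 20210 and 17075 counts in CBZ, against 15270, 4725 and 24783 in oil, and chr3.trna10899-GlyGCC 18844, 20209 and 17076 in CBZ, against 15272, 4723 and 24784 in oil. The 10 GlyGCC genes had a median log2 fold change of -0.14 within tRNA and of 0.15 over all classes, so their sign follows the scaling.

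The other isoacceptors were placed on both sides of GlyGCC. Within tRNA the median log2 fold change was 0.28 for 7 CysGCA genes, 0.43 for 7 GluCTC, 0.54 for 2 GluTTC, 0.25 for 10 HisGTG, 0.65 for 5 ValAAC and 0.66 for 5 ValCAC genes, every tested gene of these having a positive value. LysCTT had 0.63 with 9 of 10 genes positive, and the single LeuTAG gene 0.25. Negative medians were found for 3 GlyCCC (-1.42), 6 SerAGA (-0.46) and 2 SerTGA (-0.61) genes and for the single selenocysteine tRNA (-1.99). Over all classes 1 of the 3 GlyCCC genes had a positive value. The selenocysteine gene had 35, 8 and 19 counts in CBZ, against 10, 62 and 16 in oil, so its value rested largely on oil library 2. With oil library 2 and CBZ library 2 both left out it was called higher. Copies of an isoacceptor share reads, so these are not independent genes. Near-identical counts also occur across isoacceptors. The most abundant GlyCCC gene, chr2.trna4358-GlyCCC, is a near copy of GlyGCC genes by its counts. It had 18843, 20211 and 17078 counts in CBZ, against 15268, 4715 and 24781 in oil. ValAAC and ValCAC genes are near copies of each other as well, so these medians do not set the isoacceptors apart.

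The single LysTTT gene, chr17.trna1908-LysTTT, had 19, 13 and 12 counts in CBZ, against 20, 323 and 36 in oil. Its log2 fold change was -4.89 (adjusted p = 0.275) with oil library 2. Without it the value was -1.02, and the gene passed within its class (adjusted p = 0.00332; 1 of 70 tRNA genes, 1.43%). The call was lost with upper quartile scaling, with the DESeq2 Wald test, with 1 fit over all classes with class offsets, and with near-identical copies counted once, where 4 LysCTT genes were called higher instead. It was also lost without CBZ library 3 or oil library 3. Without oil library 2, 30 of the 239 features fitted by class passed in all (12.6%), and 18 of these were among the 23 of 230 (10.0%) called with it.

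Of the 3 misc_RNAs called higher in the fit of all classes without oil library 2, ENSRNOT00000090994.1 had 175, 192 and 166 counts in CBZ, against 62, 28 and 94 in oil. Its log2 fold change was 1.17 (SE 0.279, adjusted p = 0.0291), and 1.27 (adjusted p = 0.0773) over 6 libraries. ENSRNOT00000092062.1, with 168, 193 and 166 counts in CBZ and 60, 27 and 98 in oil, is a near copy with shared reads. None of the 10 misc_RNAs tested was called with upper quartile scaling (lowest adjusted p = 0.397) or without CBZ library 2 or 3, and 1 was called with DESeq2 size factors. ENSRNOT00000086005.1 had 358, 304 and 311 counts in CBZ, against 139, 161 and 178 in oil (0.99, adjusted p = 0.0377). The Ensembl miRNA transcript ENSRNOT00000054381.1 had 80, 70 and 53 counts in CBZ, against 144, 61 and 213 in oil, and fell (-1.42, adjusted p = 0.0137). That call was lost when CBZ library 2 or 3 was left out as well (lowest adjusted p of its class 0.0949 and 0.0762). The most abundant feature of the table, the misc_RNA ENSRNOT00000090410.1, had 84808, 88504 and 105759 counts in CBZ, against 69619, 23561 and 163976 in oil, and a log2 fold change of -0.00 (adjusted p = 0.996). The tables used here give these transcripts no gene name.

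Whether the CBZ differences among miRNAs were unlike those of EGME was tested as the difference between the effects, CBZ minus oil less EGME minus water, over the 12 libraries and the 146 miRNAs tested of those listed in both tables. None passed the edgeR test (0%; 16 had an unadjusted p under 0.05, the lowest adjusted p was 0.270, and the DESeq2 Wald test called 1, miR-486). When oil library 1 was left out the edgeR test called 7, among them miR-148a-3p, miR-223-3p, miR-215 and miR-486. The 5 smallest p-values belonged to miR-3559-3p (log2 fold change -0.44 for CBZ and 0.89 for EGME), miR-149-5p (0.92 for CBZ and -1.89 for EGME), miR-486 (-0.43 for CBZ and 0.54 for EGME), miR-455-3p (0.49 for CBZ and -1.79 for EGME) and miR-215 (0.24 for CBZ and -1.26 for EGME). All had an adjusted p of 0.270.

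Of the miRNAs called for CBZ, miR-423-5p had a log2 fold change of 1.55 for CBZ and 1.29 for EGME in that fit, a difference of 0.26 (SE 0.427, adjusted p = 0.925). miR-128-3p had 1.23 for CBZ and 1.44 for EGME (difference -0.21, SE 0.450, adjusted p = 0.925). miR-223-3p had -1.14 for CBZ and -0.07 for EGME (difference -1.08, SE 0.404, adjusted p = 0.270), and miR-143-3p had 0.80 for CBZ and -0.12 for EGME (difference 0.92, SE 0.351, adjusted p = 0.270). None of these differences passed the test, which does not show that the effects are equal.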

How the data were processed

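Small RNA was sequenced from serum vesicles with the NEBNext Multiplex Small RNA set on a MiSeq, per the labels' protocols. The authors deposited raw read counts, whole numbers for each feature, and a table of normalized signal that is the raw count times 1 constant per library (used only as an alternative scaling). The submitters' processing notes name edgeR and give no version. Which aligner and genome build were used, and how reads matching several copies were counted, is not given in the sources used here.

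The raw counts went into edgeR 4.0.16 in R 4.3.3, whose two-sided quasi-likelihood test was used (TMM scaling, robust fit, a minimum count of 10 in filterByExpr), with Benjamini-Hochberg adjustment and a threshold of 0.05, over all classes and then within each class with at least 10 features left by the filter (miRNA, piRNA, rRNA and tRNA), with that class's own library sizes, scaling and spread. The within-class p-values were adjusted over the 4 fits together. Class shares were compared by exact permutation in scipy 1.17.1, where the smallest p from 3 libraries against 2 is 0.20. Adjusted p-values in the text are those of edgeR unless the DESeq2 test is named. Means are given ± SD. Classes were read from feature names. The scripts were tested on simulated counts.

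The features named are those that passed, at most 15 per direction and fit, except that rRNA group A is given by examples. Also named are the 10 smallest p over all classes and the 2 most abundant of each fitted class. So are the 3 smallest p of a class fit with no call and up to 4 abundant members of each list. The 5 smallest p of the contrast with EGME and every mitochondrial RNA tested complete the set. Features that passed only without oil library 2, and the rRNA groups, were named after their values were seen. The members, the 16 lists and the tests were chosen with earlier results of these data known. Alternatives were DESeq2 1.42.0 size factors and Wald test, upper quartile or no scaling, no filter, 10 counts in 3 libraries, near-identical copies (counts within 5 percent or 3 counts in every library, mean of at least 20) counted once, which dropped 40, the authors' scaling, class offsets in 1 fit, a replicate block, and leaving out each library. The fits without oil library 2 were repeated under the same alternatives, which was added after seeing the data.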

Additional observations from a re-analysis of the deposited data

How the results depend on the processing

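Depth limits the low classes: the mitochondrial tRNAs and most tissue miRNAs rest on few counts, and the oil group varied more than the CBZ group. Every feature that passed within its class (23 features, 367 values), over all classes without oil library 2 (26 features, 360 values) or within its class without it (30 features, 449 values) had the same sign in every alternative that gave a value. Counts of calls moved more, and the cause was not tested.

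Over all classes, where none passed, no scaling gave 4 calls (3 higher and 1 lower), no filter 21 (2 higher and 19 lower), the Wald test 24, copies counted once 1 and the authors' scaling 1 (in both the mitochondrial tRNA ENSRNOT00000045499.3, lower), and leaving out a library gave 0 to 26. Within classes, where 23 passed, DESeq2 size factors gave 6 (1 higher and 5 lower), no scaling 8 (4 higher and 4 lower) and class offsets 5 (1 higher and 4 lower). Upper quartile scaling gave 20 (2 higher and 18 lower), of which 10 were among the 23, no filter 17 (3 higher and 14 lower), and the Wald test 25 (8 higher and 17 lower). Leaving out a library gave 6 (without CBZ library 1) to 30 (without oil library 2). For CBZ minus EGME no filter gave 1 (miR-215) and the Wald test 1 (miR-486), and leaving out a library 0 to 7. Without oil library 2, leaving out a further library gave 9 to 44 calls over all classes (26 passed) and 20 to 51 within classes (30 passed), a lone oil library then being assumed to vary like the others, and class offsets gave 19.

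Without scaling the median log2 fold change of all features was 0.32 in place of 0.12, and with upper quartile scaling within classes -0.31 in place of 0.14. The replicate numbers did not pair the libraries (correlations of same-numbered deviations -0.21, -0.03 and 0.31). With the number as a block 0 features passed over all classes, 18 within classes (9 higher and 9 lower) and 0 for CBZ minus EGME. Without oil library 2 the block called 13 of 70 tRNA genes (12 higher and 1 lower) and none of the 10 misc_RNAs.

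None of the class shares passed the exact test, and none could, since its smallest p is 0.10 for 3 libraries against 3. The sign of some differences depended on a choice. Leaving out a library gave differences in percentage points of -3.95 to 1.91 for miRNA, -0.213 to 7.33 for misc_RNA, -5.59 to 2.40 for piRNA, -0.0448 to 0.00269 for lincRNA, -0.00137 to 0.00130 for processed_transcript, -0.00188 to 6.73e-04 for scaRNA and -0.0588 to 0.00791 for snRNA. The end of each range opposite in sign to the value over 6 libraries came without oil library 2, or without oil library 1 for piRNA, and without CBZ library 2 too for miRNA (0.717) and processed_transcript (8.92e-06). The difference was 2.00 for miRNA and 1.40e-06 for processed_transcript with copies counted once, and 0.0185 for miRNA without the most abundant feature in the total. Over 6 libraries it was -0.770 for miRNA, 3.20 for misc_RNA and -2.76 for piRNA.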
